A study of Mus musculus with 6 samples.

Results

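Cohesin transcripts were followed through spermatogenesis and through the somatic cells of the mouse testis. The set holds the 9 genes of the ring and its arm: Smc1a, Smc1b, Smc3, Rad21, Rad21l, Rec8, Stag1, Stag2 and Stag3. They were chosen by name as the mitotic and meiotic subunits of the complex, and all 9 were found among the 25771 genes of the deposited matrix. Single-cell RNA sequencing with the 10x Genomics 3′ chemistry had been run on the testis of adult mice (strain C57BL6) with 2 genotypes, NONO and NONO deltaER. No other allele, agent or treatment is given for either genotype, and the sources used here do not say what deltaER alters. There were 6 libraries with 46495 cells in 17 deposited classes. The cell table names libraries TA, TB and TC as WT and TD, TE and TF as KI. NONO was taken to be the WT and NONO deltaER the KI, no library was matched to a numbered sample, and a wrong reading would turn every genotype direction given here. Whether each library is its own animal is not given, so p-values below reflect library-to-library spread, part of which may be technical.

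Cohesin is a ring that holds sister chromatids together. An SMC1 and an SMC3 protein form most of the ring, a kleisin closes it, and a STAG protein binds the kleisin. Mitotic cells use SMC1A, RAD21 and STAG1 or STAG2. Germ cells in meiosis add SMC1B, the kleisins REC8 and RAD21L, and STAG3, on which the chromosome axis, recombination and the stepwise release of sister chromatids depend. SMC3 is shared by all the rings. Mice that lack a meiotic subunit are known for infertility, with arrest of male germ cells in meiotic prophase when Smc1b, Rec8, Rad21l or Stag3 is lost.

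By the GENCODE M21 annotation of the mouse genome (mm10), Smc1a (chrX:152016428-152062694) and Stag2 (chrX:42149317-42277185) are on the X chromosome, and the other 7 genes are on autosomes. Smc1b lies at chr15:85064689-85131964, Smc3 at chr19:53600398-53645833, Rad21 at chr15:51962240-51991747, Rad21l at chr2:151645404-151668533, Rec8 at chr14:55618037-55625395, Stag1 at chr9:100597798-100959375 and Stag3 at chr5:138280240-138312393. Sequence upstream of the start was taken from RefSeq (GRCm38.p6), in which 7 of the 9 members were matched. Rad21 and Stag2 were not matched. The 3 sequences below belong to the Smc1 pair and to the subunit with the narrowest pattern. Capitals mark TCCCGC, the core bound by E2F factors, and each sequence is written 5′ to 3′ on the strand of its gene.
Smc1b, chr15:85131965-85132207, minus strand: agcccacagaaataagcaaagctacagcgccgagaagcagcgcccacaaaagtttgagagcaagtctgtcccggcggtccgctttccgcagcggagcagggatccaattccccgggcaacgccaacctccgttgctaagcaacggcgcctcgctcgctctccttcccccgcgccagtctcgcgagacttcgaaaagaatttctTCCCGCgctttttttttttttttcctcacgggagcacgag
Smc1a, chrX:152016178-152016427, plus strand: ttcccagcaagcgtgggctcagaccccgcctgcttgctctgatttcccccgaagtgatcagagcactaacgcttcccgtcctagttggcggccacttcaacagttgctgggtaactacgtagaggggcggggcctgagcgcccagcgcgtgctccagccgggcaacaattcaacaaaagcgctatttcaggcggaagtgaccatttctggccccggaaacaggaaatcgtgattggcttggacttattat
Rad21l, chr2:151668534-151668783, minus strand: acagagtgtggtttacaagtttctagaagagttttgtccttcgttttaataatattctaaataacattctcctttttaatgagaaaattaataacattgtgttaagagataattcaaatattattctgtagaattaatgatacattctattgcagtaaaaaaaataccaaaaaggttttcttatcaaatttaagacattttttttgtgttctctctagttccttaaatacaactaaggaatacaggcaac

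The letters TCCCGC, searched on both strands of the 250 bases before the start, were found once each in Smc1b, Smc3, Rec8 and Stag1. In Smc1b the match began 47 bases before the start. The 250 bases before the starts of Smc1a, Rad21l and Stag3 held no match, and 17% of 32536 RefSeq promoters did. CACGTG, the E-box, was found in Stag3 among the 7 matched members, against 6.04% of all promoters. Starts here are those of RefSeq and can differ from the ends of the GENCODE spans above. All 250 bases of the Stag3 window lay in exons and within the gene span, its match included. In Rec8 129 of the 250 bases lay in exons, among them the whole match, and the Stag1 match (chr9:100643418-100643447 with its flanks) lay inside the Stag1 span, outside exons. CCTCAG, the core bound by the meiotic inducer STRA8 (22.4% of all promoters), and TGACGTCA, the cAMP response element (1.56%), were found in none of the 7. The Rad21l window was poor in G and C, at 25.6% with 1 CG pair. The median of all promoters was 52.4% with 6 CG pairs, and Smc1b had 58% with 25 pairs.

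Each value below is a level in CPM: the unique molecular identifiers (UMI) of the gene in all cells of a class, scaled to a total of 1000000 UMI of that class in the same library. A 3′ tag is counted once per captured transcript whatever its length, but capture can still differ between genes. Classes had been drawn from the expression of the same cells, so levels and folds between classes are a description with no test. Fewer cells of a kind and less RNA per cell cannot be told apart within a class. SG, SC and ST in the class names were read as spermatogonia, spermatocytes and spermatids. Fixed marker lists were highest in the class of their name for undifferentiated spermatogonia and for Sertoli, Leydig, myoid and macrophage cells. The early spermatocyte list was highest in Preleptotene SC and, at 14.8 times its level over all cells, second in Differentiated SG. The differentiating spermatogonia list peaked in Round ST(Step 1-2) at 1166 CPM, with 1143 CPM in Differentiated SG, and the late spermatocyte list also peaked in Round ST(Step 1-2). The elongated spermatid list was highest in Round ST(Step 7-8), at 121638 CPM, with 104108 CPM in Round ST(Step 6-7) and 87757 CPM in Elongated ST. Class names are therefore kept as deposited and used as names. Libraries held 81042216 to 110018960 UMI in 6261 to 8909 cells, and 650 of 45836 distinct barcode sequences occurred in more than 1 library. Median mitochondrial percents set TA, TB and TF (0.0735 to 0.132) apart from TC, TD and TE (0.00846 to 0.0182), so each set holds libraries of both genotypes.

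**Figure D1:**
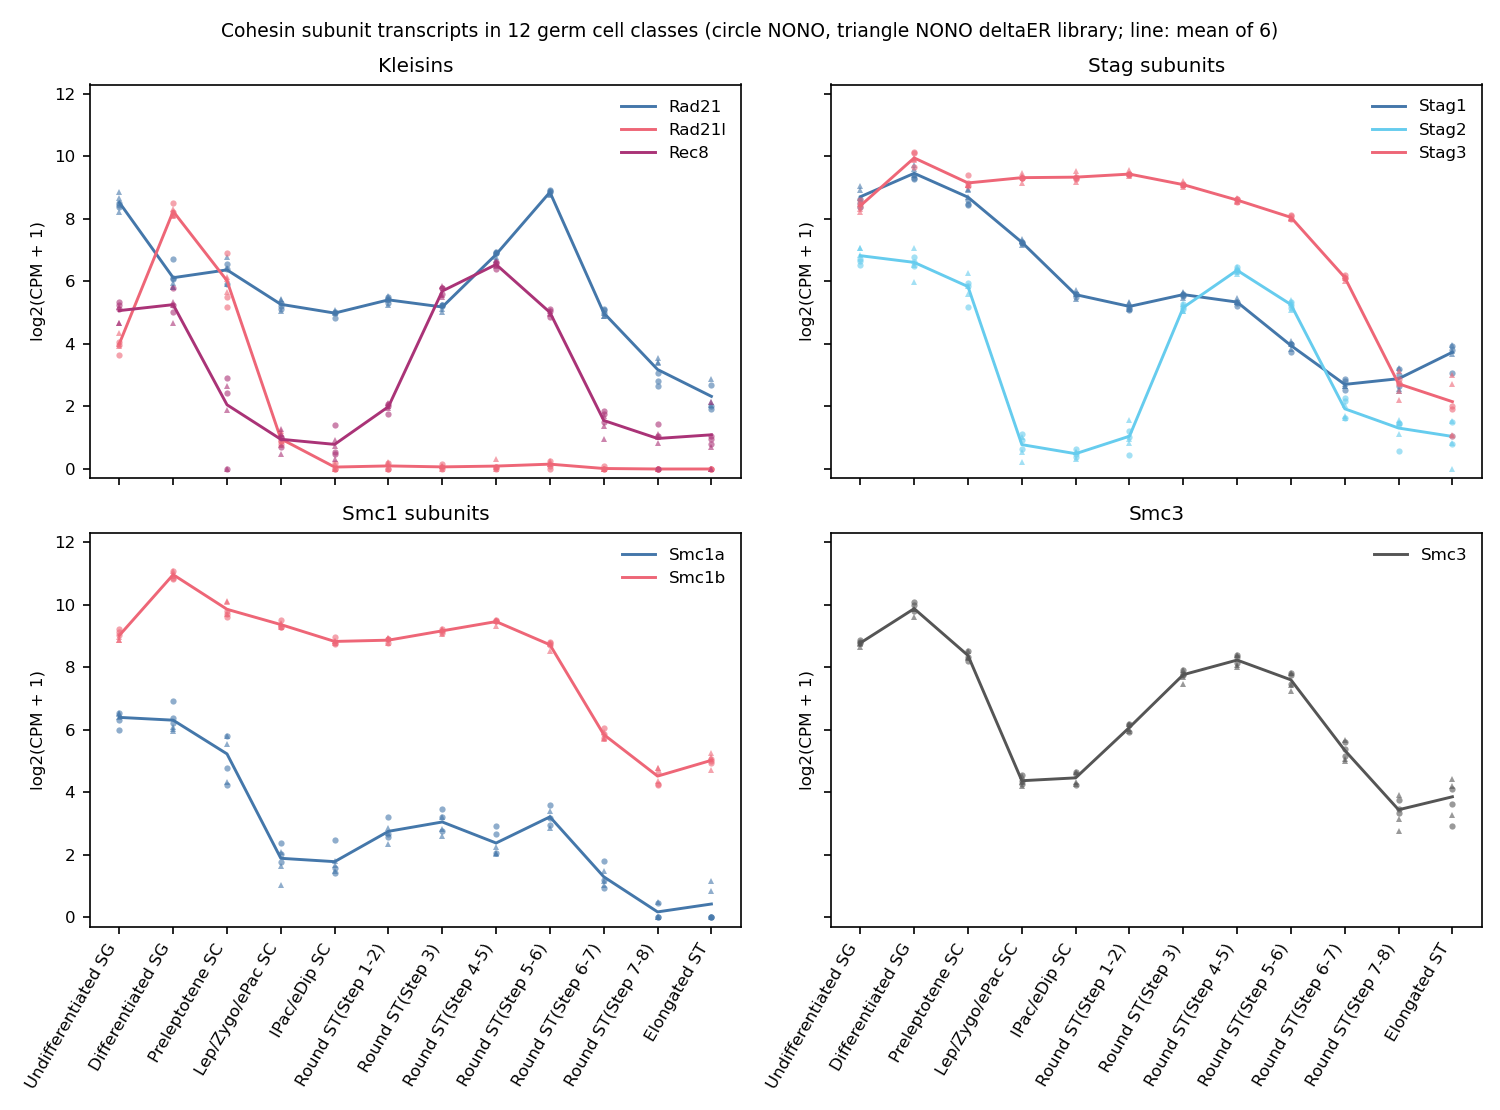
Level of each subunit as log2(CPM + 1) in the 12 germ cell classes, with 1 point for each of 6 libraries (circle NONO, triangle NONO deltaER) and a line through the mean of 6. Smc1b and Stag3 stay high through all spermatocyte classes, while Rad21l has a single peak in Differentiated SG and Rec8, Stag2 and Smc3 have a trough in Lep/Zygo/ePac SC and IPac/eDip SC with a later peak in Round ST(Step 4-5).

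The kleisins, which close the ring, took turns along the germ line. Rad21, the mitotic kleisin, was at 361, 348 and 329 CPM in the NONO libraries and 405, 465 and 297 CPM in the NONO deltaER libraries in Undifferentiated SG. In Differentiated SG it was at 68.7, 67.1 and 104 CPM against 55.0, 60.4 and 56.0 CPM, so every library was lower, by 5.37-fold between the means of 6. Rad21l, the kleisin that acts early in meiotic prophase, went the other way: 14.5, 11.7 and 15.7 CPM against 19.5, 14.3 and 14.9 CPM in Undifferentiated SG, and 362, 281 and 296 CPM against 275, 319 and 280 CPM in Differentiated SG. All 6 libraries were higher, by 20.01-fold between the means.

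Rad21l was then at 44.2, 35.6 and 119 CPM against 49.2, 67.1 and 69.0 CPM in Preleptotene SC, with TC above the other 5 libraries. In Lep/Zygo/ePac SC its 6 libraries lay between 0.707 and 1.31 CPM, from 38 UMI, a mean 67.3-fold lower than in Preleptotene SC. From IPac/eDip SC on, no class of germ cells held more than 7 UMI of Rad21l. In Round ST(Step 7-8) and Elongated ST it had 0 UMI, which allows up to 0.198 and 0.424 CPM. These floors, and all intervals below, cover counting error alone.

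Rec8, the kleisin that holds sister centromeres together through the first meiotic division, did not share the early peak. It was at 36.9, 33.7 and 39.9 CPM against 24.6, 24.4 and 35.7 CPM in Undifferentiated SG and between 24.2 and 54.9 CPM in Differentiated SG. After thinning cells to 1000 UMI, 2.75% of Undifferentiated SG and 3.44% of Differentiated SG cells had a Rec8 UMI. Both lay within the 1.24 to 3.48% of the 5 somatic classes, so these shares alone do not set the classes apart from somatic cells. In Preleptotene SC the share was 0.359%, and Rec8 had 7 UMI in all of that class. Without the highest doublet scores Rec8 was at 26.5 CPM in Undifferentiated SG, 37.95 CPM in Differentiated SG and 2.95 CPM in Preleptotene SC. Round spermatid markers were then at 97.4, 38.2 and 75.4 CPM in these classes. The source of the Rec8 UMI was not tested. Rec8 lay between 0.255 and 1.66 CPM in IPac/eDip SC, from 32 UMI.

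Rec8 transcripts were 16.99-fold higher in Round ST(Step 3) than in Round ST(Step 1-2), at 50.7 ± 5.08 CPM against 2.99 ± 0.317 CPM (SD, n = 6 libraries). Round ST(Step 1-2) and Round ST(Step 3) had the 2 highest sums of late spermatocyte markers of the 17 classes, at 1433 and 1024 CPM, and round spermatid markers at 367 and 1168 CPM, so neither class is taken here as cells past meiosis. Rec8 transcripts were highest in Round ST(Step 4-5), at 96.6, 94.5 and 84.2 CPM in NONO and 90.8, 89.1 and 98.2 CPM in NONO deltaER, from 12197 UMI. Rad21 followed, at 115 ± 8.01 CPM in Round ST(Step 4-5) and 462 ± 20.3 CPM in Round ST(Step 5-6). The latter was the highest of its 17 class means, with libraries that overlapped those of Undifferentiated SG. In Round ST(Step 6-7) Rad21 was 15-fold lower. The median of 8057 autosomal genes fell as well, from 23.4% of the Undifferentiated SG level in Round ST(Step 5-6) to 7.3% in Round ST(Step 6-7).

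The meiotic share of the kleisins, Rec8 plus Rad21l among the UMI of all 3, puts these values on 1 scale. It was 11.8% ± 2.68 in Undifferentiated SG, 83.3% ± 3.69 in Differentiated SG and 44.3% ± 7.88 in Preleptotene SC (SD, n = 6 libraries). It was then 4.80% ± 0.910 in Lep/Zygo/ePac SC and 2.40% ± 1.72 in IPac/eDip SC, the classes named for meiotic prophase. Pooled over libraries, 73 of 1568 kleisin UMI were meiotic in Lep/Zygo/ePac SC (4.66%, exact binomial 95% interval 3.67 to 5.82%). The share was 58.9% ± 1.32 in Round ST(Step 3) and 44.5% ± 2.65 in Round ST(Step 4-5), with 5 and 7 of those UMI from Rad21l, and 6.35% ± 0.407 in Round ST(Step 5-6). Rad21l alone made up 74.1% ± 3.97 of kleisin UMI in Differentiated SG.

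Cells with a UMI of Rad21, of Rad21l or of both were also counted within the earliest classes. Of 1503 Undifferentiated SG cells, 835 had a UMI of Rad21 and none of Rad21l, 30 had Rad21l alone and 66 had both. Of 619 Differentiated SG cells, 39 had Rad21 alone, 229 had Rad21l alone and 51 had both. Rad21 alone was again the more common in Preleptotene SC, in 136 of 1296 cells beside 100 with Rad21l alone and 12 with both. In Lep/Zygo/ePac SC the numbers were 987, 15 and 16 of 2439 cells. The median cell of these classes held 3291, 2036, 1253 and 13122 UMI, so a missing UMI does not show that a transcript was absent.

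**Figure D2:**
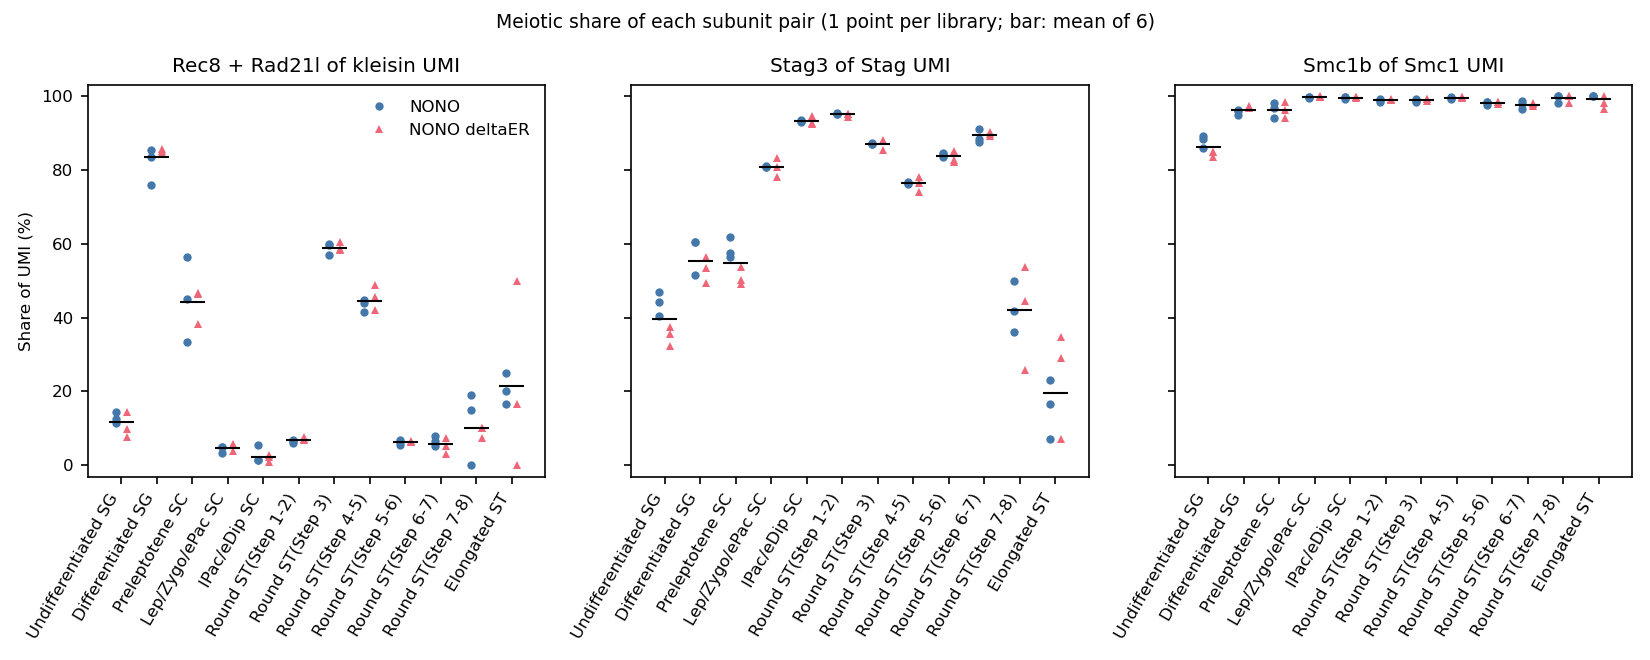
Meiotic share in percent of the kleisin, Stag and Smc1 UMI in the 12 germ cell classes, with 1 point per library (blue NONO, red NONO deltaER) and a bar at the mean of 6. The kleisin share is near 83.3% in Differentiated SG and near 58.9% in Round ST(Step 3) with low values between them. The Stag3 share climbs to 94.9% in Round ST(Step 1-2) and is lower in every later class. The Smc1b share is above 93% from Differentiated SG on.

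Smc1b, the meiotic SMC1 subunit, led its pair in every germ cell class. In Undifferentiated SG it was at 554, 591 and 517 CPM in NONO and 502, 465 and 466 CPM in NONO deltaER, where Smc1a, the mitotic subunit, was at 91.9, 77.7 and 62.7 CPM and 90.4, 91.7 and 83.0 CPM. The Smc1b share was 86.1% ± 2.23 there and 96.2% ± 0.907 in Differentiated SG (SD, n = 6 libraries). Smc1b was highest in Differentiated SG, at 1856, 1806 and 2157 CPM against 2016, 2161 and 1926 CPM, 3.85-fold above Undifferentiated SG. Later it lay between 451 and 701 CPM by class mean from Lep/Zygo/ePac SC to Round ST(Step 4-5). It was 419 ± 30.7 CPM in Round ST(Step 5-6) and 56.4 ± 5.64 CPM in Round ST(Step 6-7).

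The level of Smc1b in Undifferentiated SG was compared with that in cells that should lack it. Thinned to 1000 UMI per cell, 38.2% of 1344 Undifferentiated SG cells had an Smc1b UMI, against 5.88% of 170 macrophages, 8.69% of Unknown, 10.4% of Myoid, 12.4% of Leydig and 13.0% of Sertoli cells. The thinned share was 81.9% of 581 Differentiated SG cells and 50.2% of 836 Preleptotene SC cells. Without thinning the shares were 69.5% in Undifferentiated SG, 93.5% in Differentiated SG, 66.1% in Preleptotene SC, 5.03% in Macrophage and 20.5% in Sertoli, at median depths of 3291, 2036, 1253, 1032 and 1836 UMI. Thinning left out 159, 38, 460, 148 and 467 of their cells. Stag3 gave 28.5% in Undifferentiated SG against 6.47% (Macrophage) to 11.3% (Sertoli) in the somatic classes after thinning, and 60.8% against 8.18 to 22.3% before.

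Some Undifferentiated SG cells carried spermatid transcripts. Leaving out the 5% of cells of each library with the highest doublet scores took 271 of the 1503 cells (18.0%), and the round spermatid markers (5 of 6 measured, none at 0) went from 400 to 97.4 CPM in sum. Over the same cells Smc1b went from 516 to 492 CPM and Stag3 from 342 to 328 CPM. Stag1 went from 417 to 514 CPM, Smc3 from 436 to 503.5 CPM, Rad21 from 368 to 446 CPM, and Rec8 from 32.5 to 26.5 CPM. The early spermatocyte list, at 2.665 times its level over all cells in Undifferentiated SG, went from 1125 to 1153 CPM. It was thus not lowered by this step, and its part in the Smc1b and Stag3 levels was not tested.

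Stag3, the meiotic arm subunit, rivalled the mitotic arm subunits early and held most of the Stag UMI in the later spermatocyte classes. In Undifferentiated SG it was at 335, 385 and 359 CPM against 356, 315 and 300 CPM, beside Stag1 at 417 ± 74.0 CPM and Stag2 at 112 ± 17.2 CPM (SD, n = 6 libraries). In Differentiated SG Stag3 was at 1137, 1098 and 811 CPM against 983, 943 and 963 CPM, and Stag1 at 632, 622 and 676 CPM against 767, 836 and 683 CPM, so both were at their highest class mean. Stag3 then stayed between 546 and 691 CPM by class mean from Preleptotene SC to Round ST(Step 3). Stag1 was at 413 ± 61.9 CPM in Preleptotene SC, 152 ± 6.59 CPM in Lep/Zygo/ePac SC and 46.8 ± 3.38 CPM in IPac/eDip SC. The Stag3 share was 39.5% ± 5.46 in Undifferentiated SG, 55.3% ± 4.65 in Differentiated SG and 54.8% ± 4.78 in Preleptotene SC. It was 80.7% ± 1.65 in Lep/Zygo/ePac SC, 93.2% ± 0.739 in IPac/eDip SC and 94.9% ± 0.321 in Round ST(Step 1-2). Later it was 87.0% in Round ST(Step 3), 76.3% in Round ST(Step 4-5) and 89.2% in Round ST(Step 6-7). In Round ST(Step 7-8) and Elongated ST it was 42.0% and 19.6%, from 206 and 122 Stag UMI. Stag1 and Stag3 were found together in 1941 of 2439 Lep/Zygo/ePac SC cells, Stag3 alone of the pair in 453 and Stag1 alone in 25.

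Smc3, the subunit common to all rings, did not hold its level. It was at 445, 440 and 469 CPM against 403, 423 and 436 CPM in Undifferentiated SG and at 934 ± 109 CPM in Differentiated SG. In Preleptotene SC it was at 330 ± 30.4 CPM, and in Lep/Zygo/ePac SC at 22.2, 19.5 and 18.0 CPM against 17.3, 18.9 and 21.7 CPM, 16.8-fold lower and with no overlap between the classes. It was at 20.9 ± 2.97 CPM in IPac/eDip SC and again at 298 ± 33.8 CPM in Round ST(Step 4-5). The autosomal Smc3 was at 4.50% of its Undifferentiated SG level in Lep/Zygo/ePac SC, where the median of 8057 autosomal genes was at 69.0%.

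Summed by their place in the ring, transcripts were far from equal in meiotic prophase. In Lep/Zygo/ePac SC the 3 kleisins came to 39.4 ± 4.21 CPM, beside 659 ± 45.3 CPM for the Smc1 pair and 790 ± 41.4 CPM for the 3 Stag genes. In Undifferentiated SG the sums were 415 ± 54.8, 599 ± 48.6 and 871 ± 71.3 CPM. In Round ST(Step 5-6) the kleisins, at 494 ± 20.7 CPM, were above the Smc1 pair (427 ± 32.0 CPM) and the Stag genes (316 ± 11.7 CPM) in sum. RNA levels say nothing here of the amount of each protein.

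Both X-linked members were nearly absent in Lep/Zygo/ePac SC and IPac/eDip SC but not in Preleptotene SC. The X chromosome is known to be silenced in pachytene spermatocytes. In Preleptotene SC Stag2 was still at 56.1 ± 13.9 CPM and Smc1a at 36.4 ± 17.3 CPM, or 50.0% and 43.9% of their Undifferentiated SG means, where the X-linked median was 57.0%. X-linked genes held 2.07% ± 0.158 of all UMI in Undifferentiated SG, 0.0516% ± 0.00500 in Lep/Zygo/ePac SC and 0.0344% ± 0.00699 in IPac/eDip SC (SD, n = 6 libraries). Stag2 was at 99.9, 105 and 91.2 CPM against 113, 132 and 133 CPM in Undifferentiated SG, between 0.175 and 1.16 CPM in Lep/Zygo/ePac SC and between 0.255 and 0.564 CPM in IPac/eDip SC. Smc1a was at 82.9 ± 11.4 CPM in Undifferentiated SG, 2.69 ± 1.08 CPM in Lep/Zygo/ePac SC and 2.42 ± 1.06 CPM in IPac/eDip SC. In IPac/eDip SC the median of 242 X-linked genes was at 0.432% of Undifferentiated SG, Stag2 at 0.360% and Smc1a at 2.92%, above 207 of the 242. In Lep/Zygo/ePac SC the X-linked median was 0.938%, and Smc1a, at 3.24%, was above 195 of the 242.

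The X-linked pair parted in the Round ST classes. Stag2 was at 1.07 ± 0.543 CPM in Round ST(Step 1-2), 34.9 ± 2.42 CPM in Round ST(Step 3) and 87.2, 81.0 and 78.8 CPM against 74.5, 77.2 and 87.3 CPM in Round ST(Step 4-5). That last level was 72.1% of the Undifferentiated SG level, above 202 of the 242 X-linked genes, whose median was 7.08%. Smc1a was at 4.18 ± 1.44 CPM in the same class, 5.04% of its Undifferentiated SG level and above 109 of the 242. It was highest among round spermatid classes in Round ST(Step 5-6), at 8.25 ± 1.80 CPM, but its libraries overlapped those of Round ST(Step 3).

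**Figure D3:**
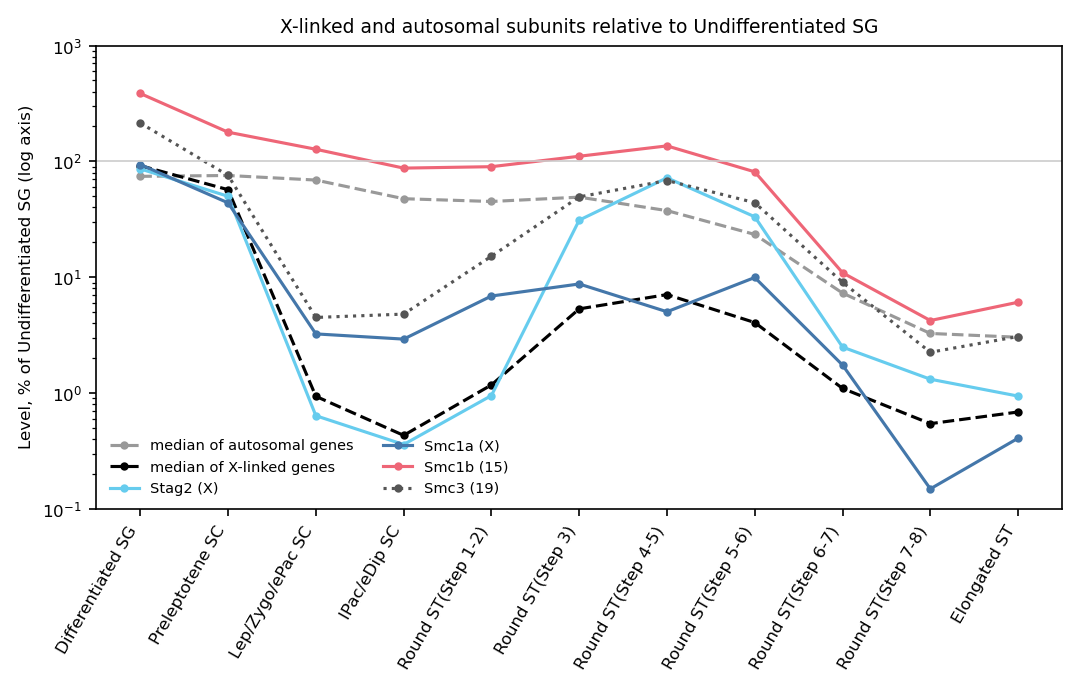
Class mean as a percent of the Undifferentiated SG mean, on a log axis, for the X-linked Stag2 and Smc1a, the autosomal Smc1b and Smc3, and the medians of 242 X-linked and 8057 autosomal genes (dashed). Stag2 follows the X-linked median down to below 1% and is then far above it in Round ST(Step 4-5), Smc1a is above that median at 3.24%, 2.92% and 6.89% in Lep/Zygo/ePac SC, IPac/eDip SC and Round ST(Step 1-2), and the autosomal Smc3 has a trough of its own near 4.50%.

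In the somatic classes Smc1a, Stag1 and Stag2 were above their level over all cells, while Rad21 and the shared Smc3 were so in some classes. Smc1a, at 7.42 ± 1.68 CPM over all cells, was at 44.0 ± 13.5 CPM in Sertoli, 117 ± 29.6 in Leydig, 141 ± 40.0 in Myoid, 116 ± 52.5 in Macrophage and 216 ± 70.7 CPM in Unknown. The Unknown class was led by the stromal list, at 429 times its level over all cells. Smc1a was thus 5.94 to 29.1 times its level over all cells, and Unknown, Myoid, Leydig and Macrophage held its highest means of the 17 classes, each overlapping the next. Stag2 was 1.63 to 4.80 times and Stag1 1.92 to 2.98 times their levels over all cells in these 5 classes. Rad21, at 111 ± 11.4 CPM over all cells, was at 177 ± 30.1 CPM in Sertoli and 148 ± 52.8 CPM in Myoid, and below that level at 107 ± 35.7 CPM in Leydig, 107 ± 25.9 CPM in Unknown and 95.1 ± 28.5 CPM in Macrophage. Smc3 was above its level over all cells in Myoid (1.16 times) and below it in the other 4 classes (0.669 to 0.915 times).

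The meiotic subunits were low there but not at 0. Smc1b was between 82.0 and 189 CPM by class mean (0.173 to 0.398 times its level over all cells), Stag3 between 102.5 and 172 CPM (0.255 to 0.427 times), and Rec8 between 15.1 and 24.5 CPM (0.409 to 0.664 times). Round spermatid markers, which these cells should lack, were at 0.20 to 0.43 times in the same classes, and their part in these levels was not tested. Without the highest doublet scores Smc1b went from 82.0 to 8.13 CPM in Macrophage and from 180 to 50.3 CPM in Unknown. It fell less in Sertoli (148 to 106 CPM), Leydig (189 to 112 CPM) and Myoid (142 to 115 CPM). Smc1a went from 116 to 125 CPM in Macrophage and from 216 to 319 CPM in Unknown. Rad21l had 12 UMI in Sertoli, 1 each in Leydig and Unknown, and 0 in Myoid and Macrophage, which allows up to 3.34 and 6.59 CPM.

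**Figure D4:**
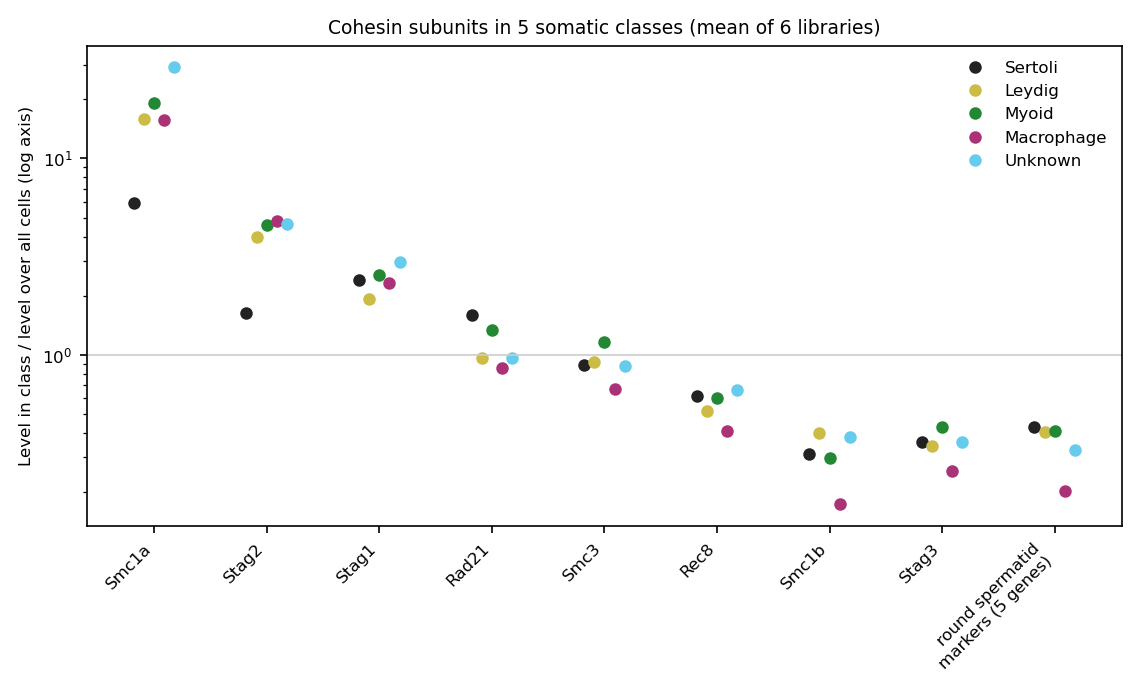
Class mean divided by the mean over all cells, on a log axis, for 8 subunits and the summed round spermatid markers in 5 somatic classes (mean of 6 libraries). Smc1a, Stag2 and Stag1 are above 1 in all 5 classes, and Smc1b, Stag3 and Rec8 are below 1 beside the spermatid markers.

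Genes with the most similar pattern were sought over the 17 class means, as Pearson correlations of log2(CPM + 1) among 13418 genes with at least 20 CPM in some class. The points share libraries and depth, and no test was made. Stag1 lay nearest to Atrn (r = 0.99), Heatr5b (0.98) and Kdm5a (0.98), and Stag3 to Ddx1, Eif1ad and Tbl2 (0.98 each). Rad21l lay nearest to Gal3st1, Gm4969 and Ugt8a (0.98 each). Smc1b had Rfc4, a clamp loader subunit of DNA replication (0.97), Rnf17 (0.97) and Cdc45, a replication helicase factor (0.96), and Smc3 had Eif2s3y (0.95), Taf9b (0.94) and Garem1 (0.93). Stag2 had Ext1 (0.96), Rlim (0.96) and Smpd2 (0.95), and Smc1a had Ro60, Tbc1d9b and Tspan4 (0.96 each). Rec8 had Tsc22d4, Cfap77 and Tmem243 (0.94 each), and Rad21 had Cyb5d1 (0.94), Mier1 (0.92) and Arih1 (0.90). Among the members the closest pairs were Smc1b with Stag3 (0.93), Smc1a with Stag2 (0.87) and Rec8 with Stag2 (0.85).

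The genotypes were compared within each class by edgeR's quasi-likelihood test on UMI summed per library, with Benjamini-Hochberg adjustment over all genes tested in the class and a threshold of 0.05. Of the 153 pairs of member and class, 114 had enough UMI to be tested, and none was called. All genes called in this main fit came to 0.0271% of 11064 in Undifferentiated SG and 0.327% of 5818 in Preleptotene SC. The share was 0% in the other 15 classes and over all cells. The number in Undifferentiated SG moved with the processing, as given in the section on processing. At an unadjusted p under 0.05 there were 8 of the 114 (7.02%), beside 4.78% of all 143072 pairs of gene and class. DESeq2 called none of the members either. The lowest adjusted p of a member was 0.232. The median SE of the log2 fold changes was 0.18, which sets the size of difference these libraries could show.

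Stag1 had the most regular genotype difference, on the higher side in NONO deltaER in the 3 earliest classes. In Undifferentiated SG it was at 396, 330 and 360 CPM in NONO and 481, 527 and 410 CPM in NONO deltaER, and the groups did not overlap. The log2 fold change was 0.31 ± 0.12 (SE), with an edgeR adjusted p of 0.232 (0.0253 unadjusted). In Preleptotene SC it was at 351, 353 and 389 CPM against 413, 492 and 483 CPM, again without overlap, and the log2 fold change was 0.32 ± 0.12 (edgeR adjusted p = 0.283). In Differentiated SG, with the values given above, it was 0.21 ± 0.12 (edgeR adjusted p = 0.836). In IPac/eDip SC the groups overlapped, at 43.9 to 47.2 CPM against 42.5 to 52.2 CPM.

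Groups that do not overlap were common in these classes. Higher in NONO deltaER without overlap were 14.5% of all genes tested in Undifferentiated SG (Stag1 and Stag2 of 9 members), 8.06% in Differentiated SG (Stag1 of 8) and 10.3% in Preleptotene SC (Stag1 of 8). Lower without overlap were 7.4% in Undifferentiated SG (Smc1b and Smc3), 4.51% in Differentiated SG (Smc1a and Rad21) and 6.41% in Preleptotene SC (no member). Stag1 spans 361.6 kb in the annotation. Across genes, which are not independent replicates, the fold change went with the genomic span, with a Spearman rho of 0.26 over 10965 genes in Undifferentiated SG, 0.30 in Differentiated SG and 0.35 in Preleptotene SC, against -0.01 in Lep/Zygo/ePac SC. The markers of undifferentiated spermatogonia (6 of 6 measured, none at 0) also stood apart in Undifferentiated SG, at 592, 615 and 605 CPM in sum against 845, 957 and 654 CPM. In Preleptotene SC 3 of 12 marker sums stood apart, all lower in NONO deltaER. Pachytene markers (5 of 5 measured, none at 0) were at 1806, 1903 and 1812 CPM against 1517, 1419 and 1427 CPM, those of undifferentiated spermatogonia (1 of 6 at 0) at 22.1 to 35.6 against 9.59 to 10.9 CPM, and those of macrophages (1 of 5 at 0) at 9.71 to 13.3 against 5.47 to 7.96 CPM. In Differentiated SG the differentiating spermatogonia list did so, at 1182, 1281 and 1221 CPM against 954, 1144 and 1075 CPM. The part of any of these in the Stag1 values was not tested.

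Smc1b was lower in NONO deltaER in Undifferentiated SG, at the values given above, with no overlap, a log2 fold change of -0.28 ± 0.11 and an edgeR adjusted p of 0.237. Without the highest doublet scores that value was -0.07. The summed round spermatid markers in the class were at 380, 474 and 627 CPM in NONO and 273, 227 and 419 CPM in NONO deltaER. In Preleptotene SC Smc1b was at 773, 838 and 888 CPM against 833, 1093 and 1101 CPM, with a log2 fold change of 0.25 ± 0.11 (edgeR adjusted p = 0.359) and TB above TD. The Stag3 share was 43.9% in NONO and 35.1% in NONO deltaER in Undifferentiated SG and 58.6% against 51.0% in Preleptotene SC, without overlap in either class. The Smc1b share was without overlap too, lower in NONO deltaER in Undifferentiated SG (87.8% against 84.4%) and higher in Differentiated SG (95.5% against 96.9%). In Myoid the Stag3 share was 56.7% against 21.0% and the meiotic kleisin share 21.4% against 6.26%, also without overlap. The Myoid kleisin share rested on 24 meiotic of 147 kleisin UMI over all libraries. TC, with 21 Myoid cells, had a Stag3 share of 85.7% there. The other shares overlapped in these and all other classes. Shares carry no test and have no rate of such separation over other gene sets beside them, and Stag1 is part of the denominator of the Stag3 share.

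Of the other members, Stag2 had a log2 fold change of 0.28 ± 0.14 in Undifferentiated SG (edgeR adjusted p = 0.350). In Differentiated SG Smc1a had -0.57 ± 0.28 (edgeR adjusted p = 0.781), from 12 to 28 UMI per library, and Rad21 had -0.52 ± 0.30 (edgeR adjusted p = 0.830). Rad21 was without overlap in a pair of later classes too, but in opposite directions. It was at 30.6, 33.6 and 32.7 CPM against 28.7, 29.0 and 30.5 CPM in Round ST(Step 6-7), where 3.35% of genes were lower without overlap and 4.62% higher. In Round ST(Step 7-8) it was at 6.03, 5.25 and 7.31 CPM against 9.67, 9.48 and 10.7 CPM, where 4.35% were higher and 3.62% lower. In Round ST(Step 4-5) Smc1a had -0.60 ± 0.24 (0.0311 unadjusted, and above 0.99 after edgeR's adjustment), with TC overlapping the NONO deltaER libraries.

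Among somatic classes Myoid had members apart. Stag3 was at 251, 146 and 348 CPM against 95.8, 72.1 and 118 CPM, so that NONO deltaER had a log2 difference of -1.16 ± 0.42 (edgeR, adjusted p = 0.546). Lower without overlap in Myoid were 6.88% of all genes tested. The round spermatid markers (5 of 6 measured) were at 974, 720 and 956 CPM in sum against 513, 252 and 812 CPM there, and their part was not tested. Stag1 was at 99.95, 97.6 and 0 CPM against 164, 270 and 128 CPM, and TC, the library at 0, held 21 Myoid cells. The edgeR adjusted p was 0.619, and 8.34% of genes were higher without overlap.

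Over all cells of a library, Rad21 was at 119, 129 and 114 CPM against 98.2, 108 and 101 CPM, without overlap, with a log2 fold change of -0.25 ± 0.07 (edgeR adjusted p = 0.823). Stag1 was at 47.1, 47.4 and 46.2 CPM against 53.2, 54.0 and 50.2 CPM, also without overlap (log2 fold change 0.15 ± 0.07, edgeR adjusted p = 0.823). Of all 20958 genes tested, 3.93% were lower and 7.77% higher without overlap. These levels also move with the make-up of the suspension. In the other 11 classes no tested member was without overlap in either direction, beside 2.94 to 7.48% of all genes per class and direction.

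**Figure D5:**
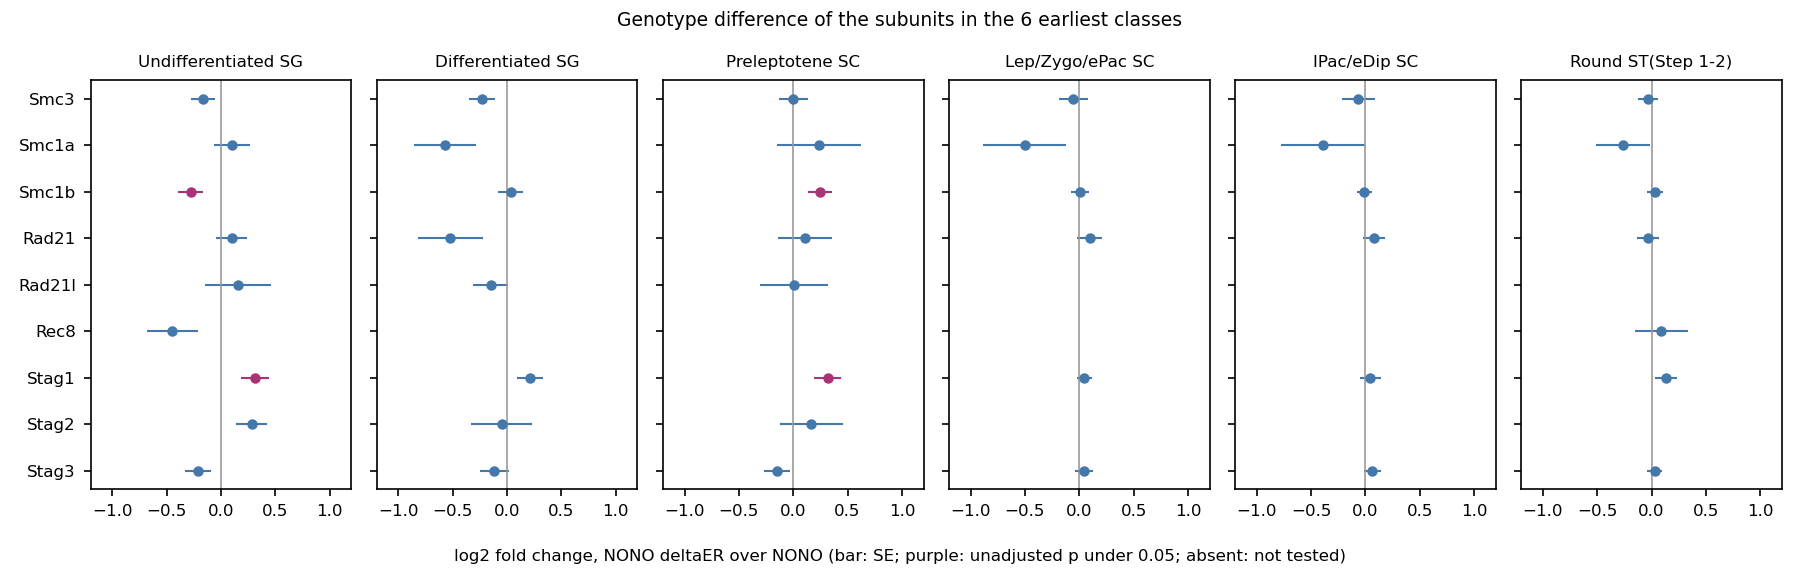
Log2 fold change of NONO deltaER over NONO with its SE for each member tested in the 6 earliest germ cell classes (purple: unadjusted p under 0.05). Stag1 is above 0 in the 3 earliest classes at 0.31, 0.21 and 0.32, and none of the values shown passed the adjusted threshold.

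Whether the exchange itself differed was tested on the log2 ratio of neighbouring germ cell classes within each library, by limma with adjustment over all genes of the pair of classes. Over 11 such steps 73 member values were tested and none was called, with 4 at an unadjusted p under 0.05 and a lowest adjusted p of 0.553. All genes called came to 0% in 10 steps and 0.00861% in the step from Round ST(Step 1-2) to Round ST(Step 3). From Undifferentiated SG to Differentiated SG the step of Rad21l was 4.07 in NONO and 3.83 in NONO deltaER, and that of Rad21 was -2.30 and -2.79 (limma adjusted p = 0.909 and 0.679). Smc1b had steps of 1.52 and 1.87 there (limma adjusted p = 0.586).

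The proteins that load, protect and release cohesin are described by a list of 21 genes, all measured. Of 209 pairs of gene and class tested, 100 lay above and 109 below 0, and none was called by edgeR, with 6 at an unadjusted p under 0.05. In Undifferentiated SG 18 of the 21 were tested, 11 above and 7 below 0, with a median log2 fold change of 0.09 beside 0.01 over all genes. The lowest p values there were those of Pds5b, a cohesin release and maintenance factor (0.32 ± 0.13, edgeR adjusted p = 0.232), and Plk1, a mitotic kinase (-0.36 ± 0.16, edgeR adjusted p = 0.286). In Preleptotene SC 9 of 10 tested lay above 0, with a median log2 fold change of 0.12 beside -0.002 over all genes. The share of all genes above 0 was not counted. Fold changes also went with genomic span in this class (Spearman rho 0.35), and its part here was not tested. The lowest p there was that of Esco1, an acetyltransferase of SMC3 (0.37 ± 0.17, edgeR adjusted p = 0.383). Across germ cell classes 8 of the 21 had their highest mean in Differentiated SG, as had 5 of the 9 subunits. Chosen after their values were seen, Nipbl, the loader, was at 288 CPM in Undifferentiated SG, 864 CPM in Differentiated SG and 1318 CPM in IPac/eDip SC, while Esco2, an acetyltransferase of SMC3, was at 122, 514 and 2.18 CPM. Hdac8, the X-linked SMC3 deacetylase, was at 32.5, 97.2 and 0.155 CPM.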

How the data were processed

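The authors deposited whole-number UMI counts of single cells from 6 libraries and, per cell, a mitochondrial percent and a class. Cell Ranger 2.1.1 and the mm10 genome are named in the submitters' processing notes, and the sources used here do not give later filters by the authors. The counts of all 46495 cells summed to their deposited totals.

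UMI were summed per library and class. Libraries were grouped by the group column of the cell table. Classes with 2 or more libraries of each genotype holding 20 cells or more were tested with edgeR 4.0.16 (TMM, low counts filtered, robust quasi-likelihood) in R 4.3.3, tested on simulated data, and steps with limma 3.58.1. Alternatives were DESeq2 1.42.0, library size alone, no filter, the 2 library sets as a covariate, cells with at least 1000 UMI, leaving out each library, and leaving out the 5% of cells with the highest Scrublet scores (2385 cells; scanpy 1.11.5). No cell was left out of the main values. Named were all members, up to 4 genes per list with the lowest p, and the 3 most similar genes per member. Members and lists were chosen with earlier results of these data known. Columns not used numbered 0.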

Additional observations from a re-analysis of the deposited data

How the results depend on the processing

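No member was called within a class or over all cells under any of the alternatives run. Leaving out each library in turn gave 0 called members every time. The number of all genes called in Undifferentiated SG was not stable, at 3 in the main fit. DESeq2 called 242, the fit with no filter 825 and that without the highest doublet scores 357. Leaving out TA gave 594 and TF 634, while leaving out TB, TC, TD or TE gave 0. The library sets as a covariate and cells with at least 1000 UMI also gave 0. The class Unknown could not be fitted on cells with at least 1000 UMI, since too few libraries kept enough cells. Without the highest doublet scores the Stag3 share in Undifferentiated SG was 33.9% in place of 39.5%, and the Smc1b share was 82.9% in place of 86.1%. Both moved by more than 1 SD of the 6 libraries. Levels in the class moved too, those of Smc3, Stag1 and Rad21 among them, as given above. The log2 fold change of Smc1b in Undifferentiated SG, -0.28, lay between -0.33 and -0.24 with 1 library left out and at -0.07 without the highest doublet scores. That of Stag1 in the class, 0.31, lay between 0.25 and 0.39 with 1 library left out and at 0.22 without the highest doublet scores. The causes were not tested. No paired analysis was possible because the deposited cell table names libraries by letter and carries no replicate number. Counts of Rad21l and Rec8 were low in spermatocytes, at 2 and 32 UMI over all libraries in IPac/eDip SC. That class held 46378456 UMI, with a median of 32452 per cell, and the cause of the low counts was not tested.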

Other observations

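Partners of cohesin on the chromosome axis, and the related SMC complexes, were measured in the same classes. Of the 9 axis genes listed, 7 were measured. Sycp2 and Sycp1, proteins of the synaptonemal complex, and Hormad1 and Hormad2, axis proteins, had their highest germ cell mean in Preleptotene SC, 1 class after the peak of Smc1b, Rad21l and Stag3, as had Syce3. Sycp1 was at 498 CPM in Undifferentiated SG, 1744 CPM in Differentiated SG and 2827 CPM in Preleptotene SC. Syce1 was highest in Round ST(Step 1-2), at 1248 CPM, and Syce2 in Elongated ST, at 853 CPM. In the genotype comparison 93 pairs of gene and class were tested for this list, 34 above and 59 below 0, with none called by edgeR and 8 at an unadjusted p under 0.05.

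Of the 14 condensin and SMC5/6 genes listed, 12 were measured. Smc4, a condensin subunit, was at 340 CPM in Undifferentiated SG and 1136 CPM in IPac/eDip SC, and Smc6 at 344 and 678 CPM, in the class where Smc3 was at 20.9 CPM. Ncapg2, a condensin II subunit, was at 391 CPM in Differentiated SG and 20.5 CPM in IPac/eDip SC. For this list 152 pairs were tested, 62 above and 90 below 0, with none called by edgeR and 2 at an unadjusted p under 0.05. The genes named here were chosen after their values were seen.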
